A study of Homo sapiens with 6 samples.

Results

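The core circadian clock was read in BT-549 cells through 10 genes chosen by name: the activators BMAL1, CLOCK and NPAS2, the repressors PER1, PER2, PER3, CRY1 and CRY2, and the REV-ERB receptors NR1D1 and NR1D2. All 10 were found by symbol among the 63140 genes in the files, and all 10 were among the 14451 genes with enough counts to be tested. BT-549 is an established triple negative breast cancer line, with the genotype given as WT. RNA was taken after 24 h from 3 wells grown in adipocyte-conditioned medium (ACM) and 3 wells grown in unconditioned medium (UCM). ACM is medium in which OP9 mouse cells had differentiated into adipocytes. It was made from alpha-MEM with insulin, oleate, albumin and a low share of serum. The sample labels give a dilution to 50% for these cultures, whereas the methods of the study describe undiluted ACM. The formula of UCM was not given in the sources used here, so base medium, serum and oleate cannot be told apart from adipocyte secretions. Nothing in the labels says that the wells were seeded from separate cultures, so p-values measure the spread between these wells.

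The clock is a loop of transcription that runs in most cells of the body. BMAL1 pairs with CLOCK, or with its relative NPAS2, and switches on genes that carry an E-box, among them the PER and CRY genes, whose proteins return to block the pair that made them. In a further loop the REV-ERB receptors repress BMAL1 while the ROR receptors activate it, both through the same DNA element, the RORE. Another arm uses D-box elements, which DBP, TEF and HLF activate and NFIL3 represses. The labels give a single harvest time, so the values below are levels at that time and hold no measure of rhythm or phase.

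Total expected counts were between 17135288 and 21053257 per library. Replicate 1 of both groups stood apart from the other libraries in FOS and EGR1. FOS, an immediate early gene, was at 1.57 CPM in ACM replicate 1 and 0.758 CPM in UCM replicate 1, against 5.27 to 9.73 CPM in the other 4 libraries. EGR1, another immediate early gene, was at 28.0 and 28.3 CPM in replicate 1 of ACM and UCM and at 84.4 to 115 CPM elsewhere. UCM replicates 2 and 3 lay closest to each other, though still further apart than sampling noise (chi-square per degree of freedom 2.33, against 13.1 to 21.6 for the other pairs within a group). Within ACM, replicate 1 was less clearly the odd library. Its values against replicates 2 and 3 were 18.8 and 15.6, with 13.1 between replicates 2 and 3. CPM is the expected count scaled to a common library size with edgeR's TMM factors. The labels call the cells epithelial, but EPCAM, KRT8, KRT18 and KRT19 were each below 1 CPM in every library and the 5 epithelial markers summed to at most 2.80 CPM, whereas the 4 mesenchymal markers, VIM among them, summed to between 4120 and 4950 CPM. Of 3 receptor markers, ESR1 and PGR had no count in any library, whereas ERBB2 was at 61.6 to 75.0 CPM. Of 7 adipocyte markers, 3 had no count anywhere, including ADIPOQ, and the sum of all 7 was 0.381 to 0.845 CPM in ACM and 0.117 to 0.853 CPM in UCM.

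Among the 10 clock genes, PER3 was lower in ACM and was the 1 gene called, which here means an adjusted p-value of 0.05 or less (edgeR quasi-likelihood test, Benjamini-Hochberg adjustment over all genes tested). No member was called higher by edgeR at the adjusted p-value, and none by DESeq2. Of all genes tested, 5.56% were called, 3.35% higher and 2.21% lower. PER3 was also the 1 member that met the study's thresholds for a DownDEG, an unadjusted p-value at or below 0.05 with a log2 FC of -0.58 or less, a group that held 1.71% of all genes tested, and no member was an UpDEG, a group that held 4.12%. At an unadjusted p-value of 0.05 or less, 2 members were higher and 2 lower, against 23.3% of all genes in either direction (11.9% higher and 11.5% lower). On CPM, the values of ACM and UCM did not overlap for 4 of the 10 members, against 29% of all genes tested (13.9% with ACM higher and 15.1% with ACM lower). These were BMAL1 and NPAS2, higher in ACM, and PER3 and CRY2, lower in ACM. On TPM, PER3 stayed apart and NPAS2 and CRY2 overlapped. BMAL1 lay apart on TPM by a very narrow margin, with a lowest ACM value of 9.1 and a highest UCM value of 9.08. The median log2 FC of the 10 genes was -0.08, against -0.01 for all genes tested.

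**Figure D1:**
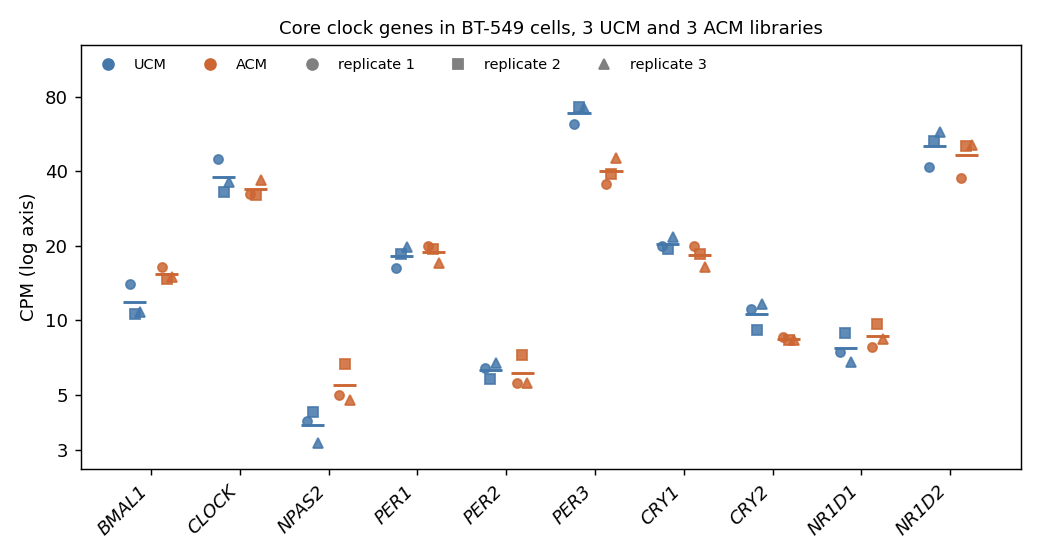
CPM of the 10 core clock genes on a log axis, with 1 point per library, the symbol giving the replicate number and the bar the mean of 3 libraries. The PER3 points in ACM, 35.5 to 45.4 CPM, lie below all those in UCM, 62.0 to 72.5 CPM, and the points of PER1, PER2, CRY1, CLOCK, NR1D1 and NR1D2 overlap between groups.

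PER3 encodes a period protein, a partner of the CRY repressors, and lies on chromosome 1 from 7784291 to 7845177 on the plus strand of GRCh38. Its CPM in the ACM libraries, replicates 1 to 3 in this and every later series of values, was 35.5, 39.0 and 45.4, against 62.0, 72.5 and 72.2 in the UCM libraries. The highest ACM library was below the lowest UCM library. The means were 39.97 ± 5.01 CPM for ACM against 68.9 ± 5.98 CPM for UCM (mean ± SD of 3 libraries). This was a log2 FC of -0.79 (standard error, SE, 0.10, 95% interval -1.02 to -0.55, edgeR adjusted p = 0.00377), by which the level fell by 42.0% relative to UCM. These values rested on 747, 693 and 835 counts per ACM library and 1308, 1348 and 1238 counts per UCM library. The call held under each of the 14 alternatives set for it, with a log2 FC between -0.89 and -0.70 and an adjusted p-value between 7.65e-15 and 0.0341. Without replicate 1 of both groups the log2 FC was -0.76 (edgeR adjusted p = 0.000945). RSEM's effective length for PER3 stayed between 4387 and 4675 bases. Its TPM, which divides by that length, also kept the groups apart, at 10.9, 12.1 and 14.8 TPM with ACM and 19.8, 21.9 and 23.6 TPM with UCM. Exons of UTS2 overlap 868 bases of the exons of PER3 on the opposite strand, and UTS2 had no count in any library.

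Because PER3 was the called member, the 250 bases upstream of a RefSeq start of this gene are shown. They are chr1:7784041-7784290 of GRCh38.p14, on the plus strand and with the D-box in capitals. The D-box begins 177 bases before this start. The window of another RefSeq start of PER3, chr1:7784179-7784478, held no D-box.
PER3: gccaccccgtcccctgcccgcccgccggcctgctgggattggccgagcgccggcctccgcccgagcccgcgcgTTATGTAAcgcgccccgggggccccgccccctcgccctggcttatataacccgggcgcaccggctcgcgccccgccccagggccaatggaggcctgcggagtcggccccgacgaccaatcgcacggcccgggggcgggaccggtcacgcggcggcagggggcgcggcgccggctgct
RefSeq windows from 250 bases before to 50 bases after a start were searched on both strands for the D-box, spelled TTACGTAA or TTATGTAA, the E-box, spelled CACGTG, and the RORE. The 10 members have 15 such windows, since some have more than 1 start. A D-box stood in 3 of the 15 windows, those of PER2, PER3 and NR1D2, and in 1.01% of all 35116 windows. An E-box stood in 2 of the 15, those of PER1 and NR1D2, and in 7.26% of all windows. A RORE stood in 3 of the 15, those of BMAL1, CLOCK and NR1D2, and in 0.316% of all windows. These are matches of letters, and binding was not measured. Other spellings of these elements and sites outside the windows were not searched, so a window without a match does not show that a gene lacks the element.

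PER1 and PER2, the other period genes, are both known as fast responders to serum, hormones and stress. They lie on GRCh38, PER1 at chr17:8140472-8156506 (minus strand) and PER2 at chr2:238244044-238290102 (minus strand). For comparison with PER3, the first bases of the PER1 window are shown, chr17:8152440-8152654 of GRCh38.p14 on the minus strand, with its E-box in capitals.
PER1: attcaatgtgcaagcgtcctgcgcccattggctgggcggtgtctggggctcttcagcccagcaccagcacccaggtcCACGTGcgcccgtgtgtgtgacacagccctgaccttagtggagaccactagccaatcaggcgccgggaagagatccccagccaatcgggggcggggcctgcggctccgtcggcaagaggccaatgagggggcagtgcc
PER1 was at 20.1, 19.4 and 17.01 CPM in ACM and 16.3, 18.6 and 19.7 CPM in UCM. The groups overlapped fully, with a log2 FC of 0.05 (SE 0.12, 95% interval -0.21 to 0.31, edgeR adjusted p = 0.842), and the sign turned with some settings. An unnamed coding gene, ENSG00000263620, shares 30 exon bases with PER1 on the same strand, and its log2 FC was 0.45 (edgeR adjusted p = 0.210). PER2 was at 5.61, 7.27 and 5.60 CPM in ACM and 6.44, 5.81 and 6.71 CPM in UCM. Its log2 FC was -0.04 (95% interval -0.42 to 0.35, edgeR adjusted p = 0.923), also with a sign that turned with some settings. For neither gene did the interval reach the -0.58 of the study's threshold. The log2 ratio of PER3 to PER1 within a library, taken on CPM, was 0.82, 1.01 and 1.42 in ACM and 1.93, 1.96 and 1.87 in UCM. On TPM the same ratio overlapped between groups, and the effective length of PER1, which sets its TPM, ran from 1657 to 2881 bases between libraries. This ratio was looked at after the values of PER3 had been seen.

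CRY1 and CRY2 encode the cryptochromes, the main repressors of the BMAL1 and CLOCK pair. They lie on GRCh38, CRY1 at chr12:106991364-107093549 (minus strand) and CRY2 at chr11:45847118-45883248 (plus strand). CRY2 was at 8.55, 8.34 and 8.32 CPM in ACM and 11.1, 9.14 and 11.6 CPM in UCM, so all ACM values lay below all UCM values. The log2 FC was -0.34 (SE 0.14, 95% interval -0.65 to -0.02), with an unadjusted p of 0.0382 and an adjusted p of 0.186 from edgeR, and it stayed negative under every alternative. CRY1 was at 19.96, 18.5 and 16.5 CPM in ACM and 20.04, 19.4 and 21.7 CPM in UCM, with a log2 FC of -0.15 (95% interval -0.40 to 0.09, edgeR adjusted p = 0.444). The values of CRY1 overlapped between groups. The log2 ratio of CRY1 to CRY2 on TPM averaged 1.39 ± 0.121 in ACM and 1.11 ± 0.223 in UCM (mean ± SD of 3 libraries). Replicate 1 of ACM and replicate 1 of UCM both stood at 1.26, so the groups met at that precision. The effective length of CRY2, which sets its TPM, ran from 2253 to 3256 bases between libraries. On CPM the values of this ratio overlapped.

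None of the 3 activators was called by edgeR. They lie on GRCh38, BMAL1 at chr11:13276652-13387266 (plus strand), CLOCK at chr4:55427903-55546909 (minus strand) and NPAS2 at chr2:100820139-100996829 (plus strand). BMAL1, a partner of both CLOCK and NPAS2, was at 16.4, 14.7 and 15.0 CPM in ACM and 14.0, 10.7 and 10.9 CPM in UCM. Every ACM value lay above every UCM value. UCM replicate 1 was the highest of its group and lay close to ACM replicate 2. The log2 FC was 0.38 (SE 0.14, 95% interval 0.07 to 0.68), with an unadjusted p of 0.0196 and an adjusted p of 0.133 from edgeR. Leaving out UCM replicate 1 gave 0.53 with an adjusted p of 0.0296, and leaving out replicate 1 of both groups gave 0.48 with an adjusted p of 0.0387, both from edgeR. Calls over all genes also rose, from 484 higher and 320 lower to 738 and 572 without UCM replicate 1. They were 1017 and 726 without replicate 1 of both groups. Over the 14 alternatives set for BMAL1, the adjusted p ranged from 0.0296 to 0.391. The RORE in the BMAL1 window begins at base 27, counting the RefSeq start as base 1, inside an annotated exon of BMAL1, and 30 bases around it, chr11:13277807-13277836 of GRCh38.p14 on the plus strand, are shown with the element in capitals.
BMAL1: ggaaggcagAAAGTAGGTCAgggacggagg
NPAS2, which can stand in for CLOCK, was at 4.99, 6.65 and 4.78 CPM in ACM and 3.93, 4.25 and 3.21 CPM in UCM, again with no overlap. Its log2 FC was 0.52 (SE 0.21, 95% interval 0.06 to 0.99, edgeR adjusted p = 0.167). Its counts were between 55 and 118 per library, the lowest of the 10 genes. CLOCK was at 32.4, 32.2 and 37.0 CPM in ACM and 44.8, 33.0 and 36.3 CPM in UCM, and UCM replicate 1 stood above the rest. The log2 FC of CLOCK was -0.17 (95% interval -0.43 to 0.09, edgeR adjusted p = 0.435) and became 0.01 without replicate 1 of both groups. TMEM165, which shares 76 exon bases with CLOCK on the opposite strand, had a log2 FC of 0.18 (edgeR adjusted p = 0.162). The log2 ratio of CLOCK to NPAS2 on CPM was 2.70, 2.27 and 2.95 with ACM and 3.51, 2.96 and 3.50 in UCM. These groups lay apart by a narrow margin. On TPM this ratio overlapped, and the effective length of NPAS2 ran from 1041 to 2915 bases between libraries.

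NR1D1 and NR1D2 encode REV-ERB alpha and REV-ERB beta, the heme-binding receptors that repress BMAL1. They lie on GRCh38, NR1D1 at chr17:40092793-40100589 (minus strand) and NR1D2 at chr3:23945286-23980617 (plus strand). NR1D1 was at 7.79, 9.63 and 8.42 CPM in ACM and 7.49, 8.92 and 6.76 CPM in UCM, with a log2 FC of 0.16 (95% interval -0.20 to 0.51, edgeR adjusted p = 0.620). The groups overlapped. Exons of THRA, the thyroid hormone receptor alpha gene on the opposite strand, cover 473 of the 2630 exon bases of NR1D1, and the counting is not stated to use strand, so reads from that stretch may belong to either gene. THRA was at 17.1 ± 0.512 CPM with ACM against 15.3 ± 2.75 CPM with UCM (mean ± SD of 3 libraries), its log2 FC being 0.17 (edgeR adjusted p = 0.518). NR1D2 was at 37.7, 50.6 and 51.1 CPM in ACM and 41.6, 52.9 and 57.7 CPM in UCM. Replicate 1 was the lowest library in both groups, and the log2 FC was -0.13 (95% interval -0.47 to 0.22, edgeR adjusted p = 0.677). NR1D2 is the 1 member whose RefSeq windows hold all 3 elements, and the 250 bases before the start whose window holds them, chr3:23945871-23946120 of GRCh38.p14 on the plus strand, are shown with these elements in capitals: a D-box on the reverse strand, an E-box, a RORE on the reverse strand and another E-box.
NR1D2: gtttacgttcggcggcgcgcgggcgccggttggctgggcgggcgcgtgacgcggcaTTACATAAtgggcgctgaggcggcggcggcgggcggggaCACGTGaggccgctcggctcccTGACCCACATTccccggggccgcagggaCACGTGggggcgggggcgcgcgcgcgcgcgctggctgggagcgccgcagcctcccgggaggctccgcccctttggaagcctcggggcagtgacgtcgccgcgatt
The log2 ratio of BMAL1 to NR1D1 overlapped between groups on both scales, with a mean on CPM of 0.84 ± 0.234 in ACM and 0.61 ± 0.329 in UCM (mean ± SD of 3 libraries). The ratio of NR1D1 to NR1D2 overlapped on CPM and lay apart by a narrow margin on TPM, where its log2 value averaged -1.47 ± 0.149 in ACM and -1.86 ± 0.356 in UCM.

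**Figure D2:**
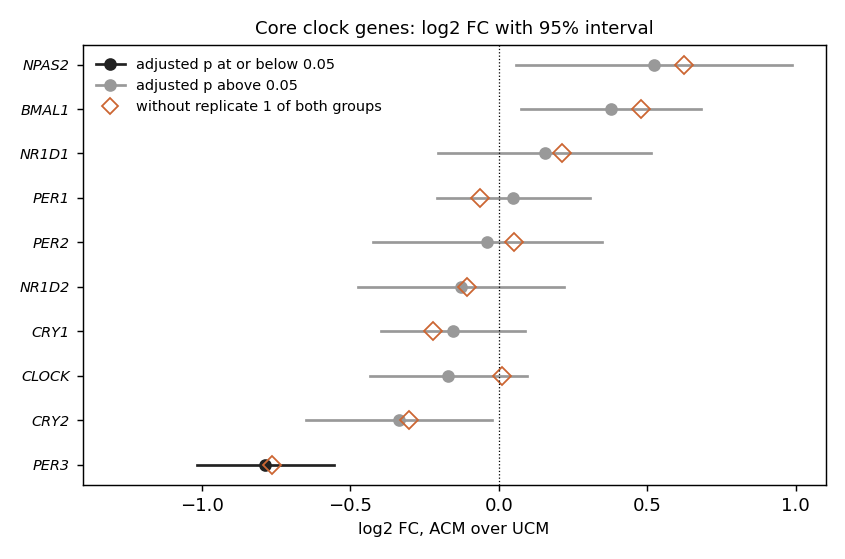
Log2 FC of ACM over UCM for the 10 core clock genes from edgeR, with 95% intervals as lines and the value without replicate 1 of both groups as open diamonds. PER3, at -0.79 with an interval of -1.02 to -0.55, is the 1 gene in black, and the diamonds of PER1, PER2 and CLOCK lie on the other side of 0 from their filled points.

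Levels can be compared between genes only per length, for which the TPM deposited by the authors was used. In UCM, PER3 had the highest mean of the 10 genes, 21.7 ± 1.92 TPM, followed by NR1D2 with 17.1 ± 2.77, PER1 with 12.9 ± 4.17, CRY1 with 12.1 ± 1.21, CLOCK with 9.94 ± 2.60 and BMAL1 with 8.19 ± 0.770 TPM (mean ± SD of 3 libraries). CRY2 with 5.67 ± 1.34, NR1D1 with 4.70 ± 0.619, NPAS2 with 3.72 ± 1.98 and PER2 with 1.72 ± 0.377 TPM followed. Neighbours in this order overlapped in their 3 values throughout, except that all values of BMAL1 lay above all those of CRY2. In ACM, NR1D2 had the highest mean, 14.5 ± 2.41 TPM, and PER3 came next with 12.6 ± 1.99 TPM. From NR1D2 down to CLOCK, 9.12 ± 1.56 TPM, each gene overlapped the next, a gap separated CLOCK from NR1D1, 5.18 ± 0.490 TPM, and another separated CRY2, 4.24 ± 0.976 TPM, from PER2, 1.41 ± 0.188 TPM. PER3 made up 46.0%, 40.4% and 57.4% of the summed TPM of the period genes in ACM and 66.4%, 57.9% and 56.6% in UCM, with an overlap between ACM replicate 3 and UCM replicate 3. The TPM of PER1 and NPAS2 depends on effective lengths that differed by 1.74 and 2.80 times between libraries.

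**Figure D3:**
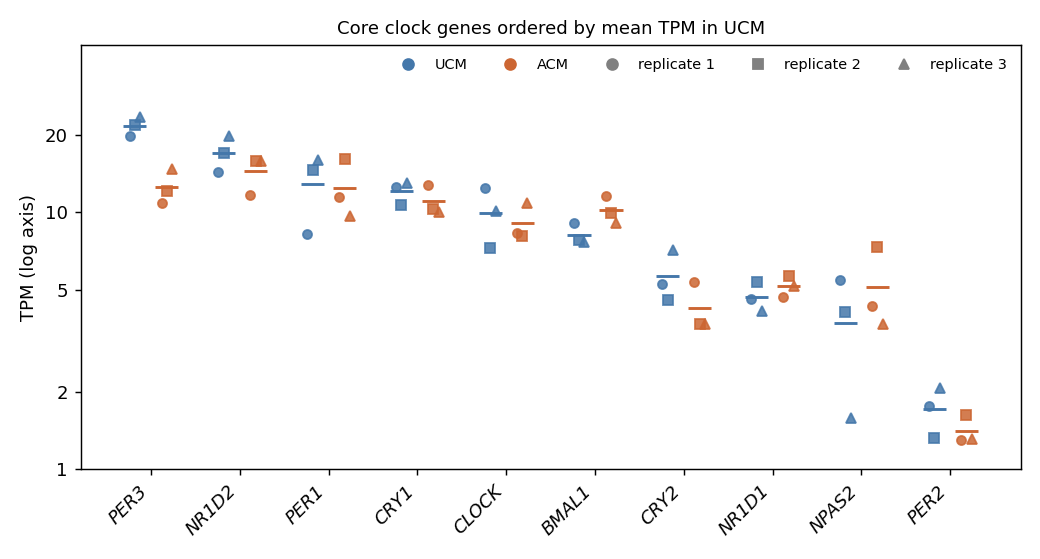
TPM of the 10 core clock genes on a log axis, ordered by the mean in UCM, with 1 point per library and bars for the means of 3 libraries. PER3 is the highest gene in UCM at 19.8 to 23.6 TPM, and PER2 the lowest in both groups on average, at 1.41 TPM in ACM and 1.72 TPM in UCM.

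Partners of the core loop were read from a list of 11 genes, of which 9 had enough counts to be tested. Of these 9, 1 was called higher and 0 lower, against 3.35% higher and 2.21% lower of all genes. At the unadjusted p-value, 2 were higher and 3 lower by edgeR, against 11.9% and 11.5% of all genes. At the study's thresholds, 2 were UpDEGs (BMAL2 and RORA) and 1 a DownDEG (TEF), against 4.12% and 1.71% of all genes. DESeq2 called 2 higher and 0 lower, and over all genes 725 higher and 422 lower of 13183. The median log2 FC was -0.09. The called gene was BMAL2, a paralog of BMAL1 that also pairs with CLOCK, at 100, 153 and 136 CPM in ACM and 86.8, 77.1 and 75.7 CPM in UCM. All ACM values lay above all UCM values, with ACM replicate 1 the nearest to UCM. The log2 FC of BMAL2 was 0.69 (SE 0.15, edgeR adjusted p = 0.0375). This call was lost in 9 of the 14 alternatives set for it, among them each of 5 libraries left out in turn, with an adjusted p from edgeR up to 0.154 without UCM replicate 2. It was 0.93 without replicate 1 of both groups (edgeR adjusted p = 0.000118). On TPM, BMAL2 averaged 43.9 ± 8.85 in ACM and 28.7 ± 2.37 in UCM (mean ± SD of 3 libraries), above every one of the 10 core genes in both groups.

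RORA, which encodes an activator of BMAL1, was at 3.52, 4.68 and 2.34 CPM in ACM and 2.27, 1.08 and 1.17 CPM in UCM. The groups did not overlap on CPM, although ACM replicate 3 and UCM replicate 1 nearly met. On TPM they overlapped, and the effective length of RORA ran from 2824 to 7313 bases between libraries. The log2 FC was 1.20 (SE 0.37, edgeR adjusted p = 0.0838), and 1.65 without UCM replicate 1 (edgeR adjusted p = 0.0193). It was 0.95 without ACM replicate 2 (edgeR adjusted p = 0.292) and 0.42 with limma on log2(TPM + 1) (limma adjusted p = 0.259). Of the D-box activators, TEF was at 4.85, 6.48 and 6.25 CPM in ACM and 7.39, 11.0 and 8.98 CPM in UCM. DBP was at 2.61, 2.87 and 2.77 CPM in ACM and 3.03, 4.84 and 4.37 CPM in UCM. For both, every ACM value lay below every UCM value. TEF had a log2 FC of -0.64 (SE 0.19, edgeR adjusted p = 0.0801) and DBP one of -0.56 (SE 0.24, edgeR adjusted p = 0.187). Without UCM replicate 1, TEF had an adjusted p of 0.0302 from edgeR, and without UCM replicate 2 one of 0.303. HLF was at 3.33, 6.14 and 7.12 CPM in ACM and 3.84, 7.58 and 6.24 CPM in UCM, with replicate 1 the lowest in both groups and a log2 FC of -0.09 (edgeR adjusted p = 0.903), whose sign turned with some settings. NFIL3, the D-box repressor, had a log2 FC of 0.23 (edgeR adjusted p = 0.274).

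BHLHE40 and BHLHE41, known as DEC1 and DEC2, are E-box repressors. BHLHE40 was at 29.8, 33.6 and 27.1 CPM in ACM and 30.4, 42.3 and 41.8 CPM in UCM. UCM replicate 1 lay within the ACM range, and the log2 FC of -0.34 (edgeR adjusted p = 0.176) was -0.47 without that library (edgeR adjusted p = 0.0176). Without UCM replicate 2 it was -0.26 (edgeR adjusted p = 0.459). BHLHE41 and CIART, which encodes the repressor CHRONO, had a log2 FC of 0.21 and -0.18, with an adjusted p of 0.471 and 0.597 from edgeR.

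Modifiers of clock proteins were read from a list of 12 genes, the kinases, ubiquitin ligases and cofactors that set how long PER and CRY proteins last or how they repress. All 12 were tested, 1 was called higher and 0 lower, against 3.35% and 2.21% of all genes, and at the unadjusted p-value 1 was higher and 1 lower by edgeR, against 11.9% and 11.5%. DESeq2 gave the same 1 and 0. The called gene was CSNK1E, which encodes a casein kinase that phosphorylates period proteins, at 171, 169 and 161 CPM in ACM and 143, 141 and 137 CPM in UCM. The log2 FC of CSNK1E was small, 0.25 (SE 0.06, edgeR adjusted p = 0.0457), and the call was lost in 8 of 14 alternatives, among them each library left out in turn except UCM replicate 1, with an adjusted p of up to 0.187 without UCM replicate 3. Its paralog CSNK1D had 0.08 (edgeR adjusted p = 0.551). SIRT1, an NAD-dependent deacetylase that acts on clock proteins, had -0.30 with no overlap between groups (edgeR adjusted p = 0.0717).

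Inputs to the clock were read from a list of 11 genes. These belong to the serum, cAMP and glucocorticoid signalling that reaches PER1 and PER2, and some are targets of that signalling. All 11 were tested, with 1 called higher and 1 called lower by edgeR, against 3.35% and 2.21% of all genes. At the unadjusted p-value 2 were higher and 4 lower, against 11.9% and 11.5% of all genes. DUSP1, a phosphatase gene induced by mitogens and glucocorticoids, was at 66.6, 82.2 and 63.8 CPM in ACM and 44.9, 47.8 and 54.5 CPM in UCM, a log2 FC of 0.53 (SE 0.11, edgeR adjusted p = 0.0258). SIK1, a cAMP-induced kinase gene that limits resetting of the clock, was at 35.8, 32.1 and 36.9 CPM in ACM and 45.1, 47.0 and 53.3 CPM in UCM, a log2 FC of -0.47 (SE 0.09, edgeR adjusted p = 0.0192). The groups did not overlap for either gene. The DUSP1 call was lost in 4 of 14 alternatives, including without ACM replicate 2 (edgeR adjusted p = 0.0825) and without UCM replicate 2 (edgeR adjusted p = 0.117). The SIK1 call was lost in 5, including without ACM replicate 2, UCM replicate 2 and UCM replicate 3, with an adjusted p of up to 0.110 from edgeR. TSC22D3 and FKBP5, both glucocorticoid targets, had a log2 FC of -0.42 and 0.02 (adjusted p = 0.148 and 0.970 from edgeR). FOS, low in replicate 1 of both groups, had a log2 FC of -0.57 with all libraries (edgeR adjusted p = 0.773) and -0.69 without replicate 1 of both groups (edgeR adjusted p = 0.0320).

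Outputs were read from a list of 7 genes that clock proteins are known to regulate, of which PPARGC1A, with 3 counts in all, was not tested. None of the other 6 was called by edgeR at the adjusted p-value, against 5.56% of all genes. At the unadjusted p-value 3 were higher and 0 lower, against 11.9% and 11.5% of all genes, and DESeq2 called 2 higher, against 725 of 13183 over all genes. These 3 genes, NAMPT, CDKN1A and PPARA, had every ACM value above every UCM value on CPM, as had 13.9% of all genes. NAMPT and CDKN1A also met the study's thresholds for an UpDEG, against 4.12% of all genes. PPARA, a fatty acid receptor and a target of BMAL1 and CLOCK, was at 8.98, 10.4 and 11.0 CPM in ACM and 6.87, 6.72 and 8.05 CPM in UCM, a log2 FC of 0.49 (SE 0.15, edgeR adjusted p = 0.0865), which ran from 0.11, with limma on log2(TPM + 1), to 0.58 over the alternatives. CDKN1A, which encodes the cell cycle inhibitor p21, was at 11.4, 22.5 and 13.1 CPM in ACM and 10.0, 9.19 and 8.28 CPM in UCM, with ACM replicate 2 far above the rest and a log2 FC of 0.77 (edgeR adjusted p = 0.113). Without ACM replicate 2 the log2 FC of CDKN1A was 0.41 (edgeR adjusted p = 0.237). CDKN1A was called in 2 of 14 alternatives, by DESeq2 (DESeq2 adjusted p = 0.018) and with a filter of at least 1 count in total (edgeR adjusted p = 2.86e-05). The highest adjusted p over all 14 was 0.298, from edgeR without UCM replicate 3. NAMPT, whose product makes the NAD that SIRT1 uses, was at 316, 626 and 375 CPM in ACM and 201, 198 and 197 CPM in UCM. ACM replicate 2 was again the highest, and the log2 FC of NAMPT was 1.14 (edgeR adjusted p = 0.0609). NAMPT was called in 6 of 14 alternatives, including DESeq2 and both limma fits on TPM, with an adjusted p between 0.00276 and 0.215 over all 14. Without ACM replicate 2 its log2 FC was 0.80 (edgeR adjusted p = 0.00276). WEE1, a kinase gene with E-boxes, had a log2 FC of 0.15 (edgeR adjusted p = 0.418).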

How the data were processed

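PolyA RNA of 6 wells was sequenced in pairs. The submitters' processing notes and the study's methods name Trim Galore for trimming, STAR for alignment (build GRCh38) and RSEM for quantification, each library on its own. Versions, annotation and library strand are not given in the sources used here. The authors deposited an expected count, a TPM and an effective length per gene. Expected counts share reads that fit several genes and were rounded here. A table of the authors' own DESeq2 fold changes and p-values was not used.

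Identifiers were given symbols from GENCODE 44 names, with 61547 of 63140 matching exactly. Genes passing filterByExpr were compared in R 4.3.3 with edgeR 4.0.16 (TMM, robust quasi-likelihood, condition as the only term, Benjamini-Hochberg adjustment over 14451 genes), tested first on simulated data. Intervals are 95% intervals from that fit. Totals were 17135288 to 21053257 counts per library, and the common coefficient of biological variation was 0.115. DESeq2 1.42.0 and limma 3.58.1 were used in alternatives. Overlapping exons came from GENCODE 44 and promoter windows from RefSeq (GRCh38.p14).

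The members and lists were chosen with earlier results of these data known. Named genes are the 10 members, the loop partners, called genes of the other lists and genes overlapping members; FOS, EGR1, CSNK1D, SIRT1, TSC22D3, FKBP5, NAMPT, CDKN1A, PPARA and WEE1 were named after their values were seen. Replicate numbers are shared between groups. Same-numbered deviations correlated at 0.318, 0.0347 and 0.177, and differently numbered ones at -0.314 to 0.196. The main fit did not take the libraries as pairs, and these values do not settle whether replicates shared an effect. A fit with the replicate number as a block is given below. Some listed genes are not reported here by name, though the counts over their lists include them.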

Additional observations from a re-analysis of the deposited data

How the results depend on the processing

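Of 375 log2 FC values compared over 25 named genes and 15 settings, 322 kept their direction and side of the threshold, 14 passed it newly, 26 no longer passed it and 13 turned in sign. These genes are the members, the tested loop partners, the called genes of the other lists and the genes overlapping members. The genes named after their values were seen, NAMPT and CDKN1A among them, are not in this count. The lower call of PER3 was kept in all 15 settings, which include leaving out replicate 1 of both groups, a setting chosen after the values of these libraries had been seen.

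Within this count, the signs that turned belonged to genes that were not called. Outside it, EGR1, FKBP5 and CSNK1D, also not called, turned in sign with some settings. PER1 was at -0.0328 with limma on log2(TPM + 1), at -0.033 on log2(TPM + 0.1) and at -0.0253 with effective length offsets, and it ranged from -0.0614 to 0.12 with libraries left out. The range with libraries left out was -0.26 to 0.0114 for CLOCK, -0.17 to 0.0529 for PER2, -0.24 to 0.0147 for NR1D2 and -0.32 to 0.19 for HLF.

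Called members numbered 0 to 1 higher with libraries left out, the 1 being BMAL1 without UCM replicate 1 or without replicate 1 of both groups. Loop partners called higher were 2 with DESeq2 and 2 with a filter of at least 1 count in total (BMAL2 and RORA), 0 with limma on either TPM scale, 0 with effective length offsets and 0 to 2 with libraries left out. Loop partners called lower were 2 with that filter (BHLHE40 and TEF) and 0 to 2 with libraries left out. Modifiers called higher were 0 with limma on either TPM scale, 0 with effective length offsets and 0 to 1 with libraries left out, and those called lower were 1 with the loose filter (SIRT1) and 0 to 1 with libraries left out. Inputs called higher were 0 with limma on either TPM scale and 0 to 1 with libraries left out. Inputs called lower were 2 with DESeq2, 3 with the loose filter, 0 with limma on either TPM scale and 0 to 2 with libraries left out. Outputs called higher were 2 with DESeq2, 1 with the loose filter, 1 with limma on either TPM scale, 1 with effective length offsets and 0 to 1 with libraries left out. The counts over all genes moved with the settings too, and for some settings so did the number of genes tested. They were 484 higher and 320 lower of 14451 in the main fit, and 725 and 422 of 13183 with DESeq2. The loose filter gave 1045 and 679 of 25486. Of 14451 genes, limma called 210 and 121 on log2(TPM + 1) and 221 and 128 on log2(TPM + 0.1). Effective length offsets gave 272 and 134 of the same 14451. The cause of these shifts was not tested.

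With the replicate number as a block, 909 genes were called higher and 703 lower over all genes, against 484 and 320 without it. ACM replicate 3 deviated most like UCM replicate 2, so not every library was closest to its own number. Under this block PER3 remained called, loop partners numbered 1 higher (RORA in place of BMAL2) and 1 lower (TEF), modifiers 1 lower (SIRT1), inputs 3 lower (NR3C1, SIK1 and SRF) and outputs 1 higher (PPARA). All-gene calls fell to 125 higher and 70 lower of 14779 without UCM replicate 2, and to 156 and 62 of 14775 without UCM replicate 3. Without ACM replicates 1, 2 and 3 in turn they were 415 and 206 of 14683, 197 and 87 of 14727, and 320 and 190 of 14770. They rose to 738 and 572 of 14684 without UCM replicate 1, and to 1017 and 726 of 14393 without replicate 1 of both groups.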
